A study of Rattus norvegicus with 12 samples.

Results

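The 33 genes described here encode the enzymes that build cholesterol and fatty acids and the proteins that control them. They were taken by symbol from an expression table of 18344 genes, where each of the 33 had 1 row. By role they are 5 control proteins, 9 enzymes of the mevalonate and squalene steps, 9 enzymes from lanosterol to cholesterol, 1 sterol carrier, 4 enzymes of fatty acid synthesis and 5 of fatty acid desaturation and elongation. Poly-A RNA had been sequenced from 12 libraries of rat cells, all exposed to OGD/R (oxygen-glucose deprivation, then reperfusion, a culture model of ischaemia). There were 4 groups of 3 libraries, each named for what was combined with OGD/R: NC, CIRBP, si-NC and si-CIRBP. CIRBP is the cold-inducible RNA-binding protein, and the labels do not say how the treatment named after it was given. Each library is called a biological replicate, but separate cultures are not described, so the p-values measure the spread between these libraries. The titles name H9C2, a line from embryonic rat heart used as a cardiac myoblast model, while the cell line label reads rat astrocytes.

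In animal cells the supply of sterols and fatty acids is matched to demand by the sterol regulatory element-binding proteins, which Srebf1 and Srebf2 encode. These transcription factors are made as membrane proteins of the endoplasmic reticulum. When sterols are scarce, Scap escorts them to the Golgi, where proteases release the part that enters the nucleus, and when sterols are plentiful the Insig proteins hold Scap back. The Srebf2 product is best known for driving sterol synthesis genes, and the Srebf1 product for driving genes of fatty acid synthesis and desaturation. Insig1 and Stard4 are themselves known targets of this system.

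Proximal promoters were sought for all 33 genes, whether or not they were called in the 2 comparisons made below. Those found were read for the motifs of this system. RefSeq promoters of the rat build GRCr8 matched 26 of the 33 genes, with 27 windows of 250 bases ending just before the start of the gene, since Srebf1 has a pair of starts. Both strands were searched for CCAAT (the NF-Y box), GGGCGG (the Sp1 box) and TCACNCCAC (a sterol regulatory element core). The box CCAAT was present in 20 of the 26 genes (76.9%), against 34% of 33469 promoters and 35.6% of the 10062 promoters of genes tested below. It was absent from Acat2, Dhcr7 and Fads2, called higher in both comparisons, and from Cyp51, Scap and Scd, not called higher in both. Pmvk, Fdft1 and Stard4, also called higher in both, had no matched promoter. A link between the box and the calls was not tested. The box GGGCGG was present in 21 of the 26 (80.8%), against 30.5% of all promoters and 58.6% of those of tested genes. The TCACNCCAC core was found in 0 of the 26, against 0.974% of all promoters and 0.984% of those of tested genes. Its first 8 letters, TCACNCCA, lie inside the core and were searched only after the core had given no match. They were found in 2 of the 26 (7.69%), Srebf2 and Msmo1, against 3.24% of all promoters and 2.8% of those of tested genes. These matches are letters in a window and do not show that a factor bound there. The sequences that follow run 5′ to 3′ toward the gene, with every match of the NF-Y box, the Sp1 box and the 8 letters in capitals. A match on the opposite strand reads ATTGG for the NF-Y box, or CCGCCC for the Sp1 box. They are shown for Srebf2, which with Insig1 was one of the control genes called higher in both comparisons, for Srebf1, called lower in CIRBP, with both of its starts, the elongase with the smallest p in both comparisons, and a mevalonate enzyme with 5 CCAAT boxes.
Srebf2 (chr7:115543057-115543306, plus strand): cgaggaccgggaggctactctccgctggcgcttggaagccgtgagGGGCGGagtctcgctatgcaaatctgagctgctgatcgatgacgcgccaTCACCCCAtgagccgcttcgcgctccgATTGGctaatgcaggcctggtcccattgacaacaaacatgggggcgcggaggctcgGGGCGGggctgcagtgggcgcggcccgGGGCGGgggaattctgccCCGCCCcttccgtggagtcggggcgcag
Srebf1 (chr10:45519011-45519260, minus strand): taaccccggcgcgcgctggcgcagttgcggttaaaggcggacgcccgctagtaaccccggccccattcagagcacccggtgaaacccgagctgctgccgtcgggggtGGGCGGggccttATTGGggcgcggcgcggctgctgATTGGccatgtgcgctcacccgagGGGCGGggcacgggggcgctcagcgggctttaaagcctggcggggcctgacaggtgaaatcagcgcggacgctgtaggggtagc
Srebf1, other start (chr10:45529165-45529414, minus strand): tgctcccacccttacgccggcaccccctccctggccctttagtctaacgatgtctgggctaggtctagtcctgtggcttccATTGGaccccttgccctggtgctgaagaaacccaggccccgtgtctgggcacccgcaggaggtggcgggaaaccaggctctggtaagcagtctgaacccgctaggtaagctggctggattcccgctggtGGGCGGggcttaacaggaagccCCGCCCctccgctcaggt
Elovl5 (chr8:87670914-87671163, plus strand): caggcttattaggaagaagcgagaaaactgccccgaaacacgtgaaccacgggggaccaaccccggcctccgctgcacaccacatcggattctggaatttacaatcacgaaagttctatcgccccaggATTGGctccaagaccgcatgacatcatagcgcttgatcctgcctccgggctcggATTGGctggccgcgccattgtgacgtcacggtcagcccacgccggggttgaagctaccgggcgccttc
Mvk (chr12:47819504-47819753, minus strand): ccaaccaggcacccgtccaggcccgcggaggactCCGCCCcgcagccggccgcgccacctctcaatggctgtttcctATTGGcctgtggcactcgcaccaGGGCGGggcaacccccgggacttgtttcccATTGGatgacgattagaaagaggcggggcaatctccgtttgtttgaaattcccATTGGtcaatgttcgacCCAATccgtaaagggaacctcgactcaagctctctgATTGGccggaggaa

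In Srebf2 the 8 letters TCACCCCA began 156 bases before the start on the plus strand, and the box CCAAT lay 129 bases before it on the opposite strand. Srebf1 held 2 CCAAT boxes before the first start listed and 1 before the other, with 2 GGGCGG boxes before each. Elovl5 held 2 CCAAT boxes and no GGGCGG box. Msmo1, whose window is not shown, had TCACTCCA 190 bases before its start and 3 CCAAT boxes.

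Expression was given as FPKM, a fragment count corrected for the length of the transcript and the size of the library, so levels can be compared between genes per length. FPKM keep no absolute depth, and the relative depth read from the smallest values was 0.841 to 1.03 times that of NC library 1. Summed FPKM per library lay between 457770 and 502890. Cirbp itself was higher in CIRBP than in NC (34.3, 36.5 and 36.5 against 19.0, 19.8 and 20.1 FPKM; log2 change 0.83, adjusted p = 2.47e-06). It was not lower in the libraries labelled si-CIRBP (26.5, 28.6 and 27.7 FPKM) than in si-NC (29.0, 24.2 and 27.0 FPKM; log2 change 0.05, adjusted p = 0.609), which goes against that label. Of 11 skeletal and cardiac muscle markers, which bear on the name H9C2, 4 reached 1 FPKM in each NC library, 2 to 3 in CIRBP, 5 to 8 in si-NC and 7 to 8 in si-CIRBP. Their sums were 10.7 to 12.7, 7.95 to 9.60, 19.4 to 162 and 38.6 to 247 FPKM in these groups. Tnnt2 was at 2.61 to 4.56 FPKM in NC and CIRBP, while Myod1 was at most 0.0819 FPKM there, against 1.74 to 21.6 FPKM in si-NC and 9.83 to 11.6 FPKM in si-CIRBP. Of the 6 astrocyte markers in the table, S100b stood at 111 to 188 FPKM in all libraries, Gfap at 1.44 to 6.89 FPKM and Aldoc at 9.32 to 91.0 FPKM. Slc1a2 was at most 0.535 FPKM and Aldh1l1 at most 0.287 FPKM in any library, and Slc1a3 at most 0.0293 FPKM in NC and CIRBP. Fibroblast markers summed to 88.9 to 90.0 FPKM in NC and 156 to 167 FPKM in CIRBP. In si-NC they summed to 152 to 1204 FPKM and in si-CIRBP to 597 to 1220 FPKM. Pdgfra made up most of the sum in NC and CIRBP, at 86.0 to 165 FPKM. There Col1a1 was at 1.02 to 2.36 FPKM, against 42.4 to 683 FPKM in the si groups. Of the adipocyte markers only Plin1 and Lipe had a row, and both stayed under 1 FPKM. Summed levels of 6 smooth muscle markers were 78.4 to 96.5 FPKM in NC and CIRBP. In the si groups they were 756 to 1443 FPKM, except si-NC library 1 at 184 FPKM. Smtn made up most of the sum in NC and CIRBP, at 71.1 to 93.1 FPKM, against 65.5 to 82.2 FPKM in the si groups. Acta2 was at 0.400 to 2.18 FPKM in NC and CIRBP, against 73.8 to 954 FPKM in the si groups. In library 1 of si-CIRBP, 11 hypoxia-induced genes summed to 1316 FPKM, against 338 and 385 FPKM in its other libraries. Both libraries stand apart from the rest of their groups, and the calls that change without either of them are listed after the results by role.

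Of the 18 sterol synthesis enzymes, 9 were called higher in CIRBP than in NC and 12 in si-CIRBP than in si-NC, with 0 called lower in either. Groups were compared on log2(FPKM + 1) with limma, and a gene was called at an adjusted p under 0.05. Of the 33 genes, 32 reached 1 FPKM in at least 3 libraries and were tested. The exception was Elovl6, which elongates saturated fatty acids and stayed between 0.0310 and 0.974 FPKM. In CIRBP against NC 17 of the 32 were called (53.1%), close to the 54% of all 14257 genes tested. By direction, 16 (50%) were higher, against 19.7% of all genes, and 1 was lower, against 34.2% of all genes. In si-CIRBP against si-NC 21 of the 32 were called (65.6%), against 29.6% of all genes, with 20 (62.5%) higher, against 9.08%, and 1 lower, against 20.5%. The median log2 change of the 32 was 0.48 in CIRBP and 0.54 in si-CIRBP, while that of all genes tested was -0.08 and -0.04. The genes called higher in both comparisons numbered 14 of the 32 (43.8%), out of 16 in the first and 20 in the second, against 6.5% of all genes tested. The list was chosen with earlier results of these data known, so its shares beside those of all genes are a description and not separate evidence. The comparisons have separate control libraries but share an estimate of spread per gene across all groups. The median SD of log2(FPKM + 1) within a group was 0.054 in NC, 0.057 in CIRBP, 0.133 in si-NC and 0.147 in si-CIRBP. With only the groups compared, 8 of the 32 were called in si-CIRBP, so the count of 14 depends on that shared estimate. In bulk RNA, fewer cells of a type and less RNA per cell cannot be told apart.

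**Figure D1:**
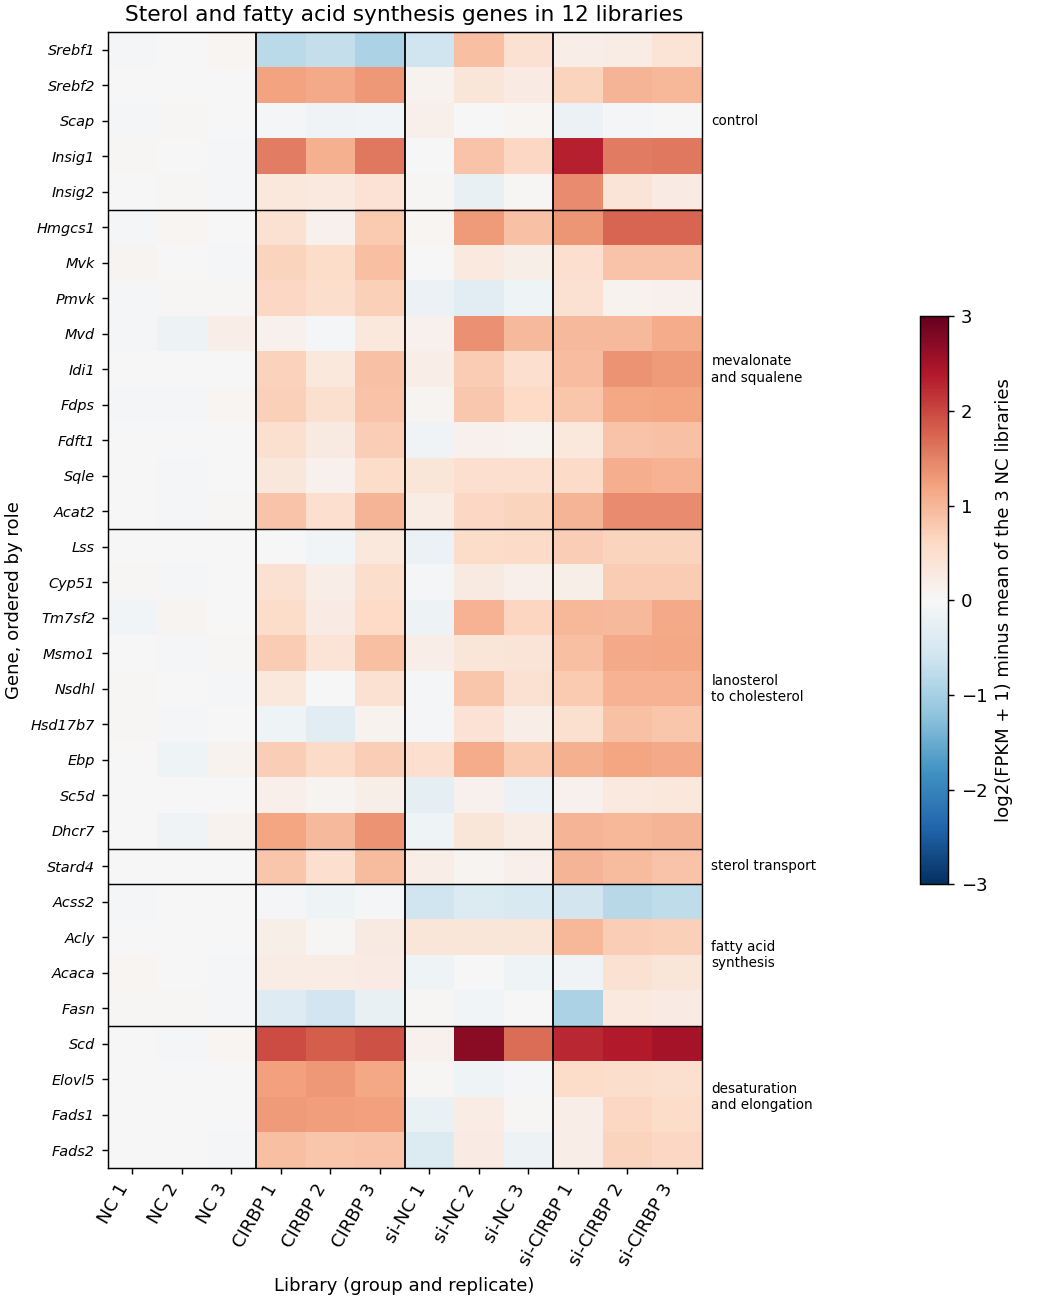
Heat map of the 32 tested genes (rows, ordered by role) in the 12 libraries (columns, by group), as log2(FPKM + 1) minus the mean of the 3 NC libraries. Most rows of sterol synthesis are red in the CIRBP and si-CIRBP columns, the Srebf1 row is blue in CIRBP, and si-NC library 1 is close to the NC columns, with a median over the 32 genes of 0.0235.

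The split of calls depended on scaling. When every library was brought to one median, the median change of all genes moved by 0.109 in CIRBP and 0.102 in si-CIRBP, and the calls over all genes went from 2814 higher and 4881 lower to 4089 higher and 3758 lower in CIRBP. In si-CIRBP they went from 1294 higher and 2924 lower to 2420 higher and 1903 lower. Among the 32 genes that scaling gave 21 higher and 0 lower in CIRBP and 24 higher and 0 lower in si-CIRBP, with median changes of 0.62 and 0.64. Fitting only the groups compared left 8 of the 32 called in si-CIRBP (background 8.1%) and 25 in CIRBP (background 70.7%), and a variance factor per group left 9 (background 14.2%) and 28 (background 71.3%).

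Among the control proteins, 3 of the 5 were called in CIRBP (2 higher, 1 lower) and 3 in si-CIRBP (all higher), which is 60% of them against 54% and 29.6% of all genes. Srebf2 and Insig1 rose in both comparisons, Insig2 rose in si-CIRBP, and Srebf1 fell in CIRBP. Srebf2 was at 27.8, 28.0 and 28.2 FPKM in NC and at 66.5, 62.4 and 70.2 FPKM in CIRBP. Levels in si-NC were 30.2, 36.1 and 33.2 FPKM, and in si-CIRBP 44.8, 57.3 and 56.4 FPKM. Neither pair of groups overlapped, and the CIRBP libraries were the highest of the 12. It had a log2 change of 1.21 ± 0.09 (SE; adjusted p = 2.38e-06) in CIRBP and 0.65 ± 0.09 (adjusted p = 0.000689) in si-CIRBP.

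Srebf1 was low throughout, at 2.53, 2.70 and 2.81 FPKM in NC, and 1.09, 1.25 and 0.902 FPKM in the CIRBP libraries. The si-NC libraries stood at 1.43, 5.90 and 4.01 FPKM and the si-CIRBP libraries at 3.25, 3.32 and 3.88 FPKM. The CIRBP libraries all lay below the NC libraries, while the si-NC libraries spread on both sides of the si-CIRBP ones. The log2 change was -0.82 ± 0.29 (adjusted p = 0.0324) in CIRBP and 0.03 ± 0.29 (adjusted p = 0.951) in si-CIRBP. The call in CIRBP was lost in 8 of 23 other settings. Both scalings and the removal of any 1 NC or CIRBP library were among them. Over the 23 settings the log2 change in CIRBP was -1.24 to -0.72, with an adjusted p of 0.000121 to 0.0913. The difference between the changes of Srebf1 in the 2 comparisons was -0.85 ± 0.41 and was not called (adjusted p = 0.180), although it was called without si-NC library 2 (adjusted p = 0.0328).

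Scap, the escort, was called in neither comparison. It was at 25.1, 26.2 and 25.6 FPKM in NC, and 24.8, 23.6 and 24.3 FPKM in the CIRBP libraries, and at 28.7, 25.9 and 26.8 FPKM in si-NC and 22.7, 24.8 and 25.5 FPKM in si-CIRBP. It had a log2 change of -0.08 (adjusted p = 0.270) in CIRBP and -0.15 (adjusted p = 0.0663) in si-CIRBP. Each treated group lay just below its control group. Scap was called in CIRBP with a variance factor per group (adjusted p = 0.0385). In si-CIRBP it was called without si-NC library 2 (adjusted p = 0.0388).

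Insig1, which holds Scap back in the endoplasmic reticulum, was at 19.0, 18.3 and 18.0 FPKM in NC, and 55.2, 39.4 and 56.7 FPKM in the CIRBP libraries. Libraries of si-NC held 18.7, 34.1 and 29.0 FPKM and those of si-CIRBP 97.6, 56.2 and 56.9 FPKM. The treated libraries were above their controls in both comparisons, with si-CIRBP library 1 well above all others. The log2 change was 1.39 ± 0.25 (adjusted p = 0.000724) in CIRBP and 1.33 ± 0.25 (adjusted p = 0.00276) in si-CIRBP. With only libraries 2 and 3 of the si groups, the change in si-CIRBP was 0.83 (adjusted p = 0.00264). Its relative Insig2 was at 16.5, 16.7 and 15.6 FPKM in NC, and 20.4, 20.2 and 22.3 FPKM in the CIRBP libraries, a log2 change of 0.35 that was not called (adjusted p = 0.250). In si-NC Insig2 was at 16.7, 13.7 and 16.6 FPKM and in si-CIRBP at 44.9, 21.5 and 19.6 FPKM, a log2 change of 0.74 ± 0.24 (adjusted p = 0.0393). Library 1 of si-CIRBP, the one with the high sum of hypoxia-induced genes, was again far above the other libraries. Without it the change of Insig2 was 0.37 (adjusted p = 0.00799), and the call was lost in 11 of 23 other settings. The part of the hypoxia-induced genes in these values was not tested.

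**Figure D2:**
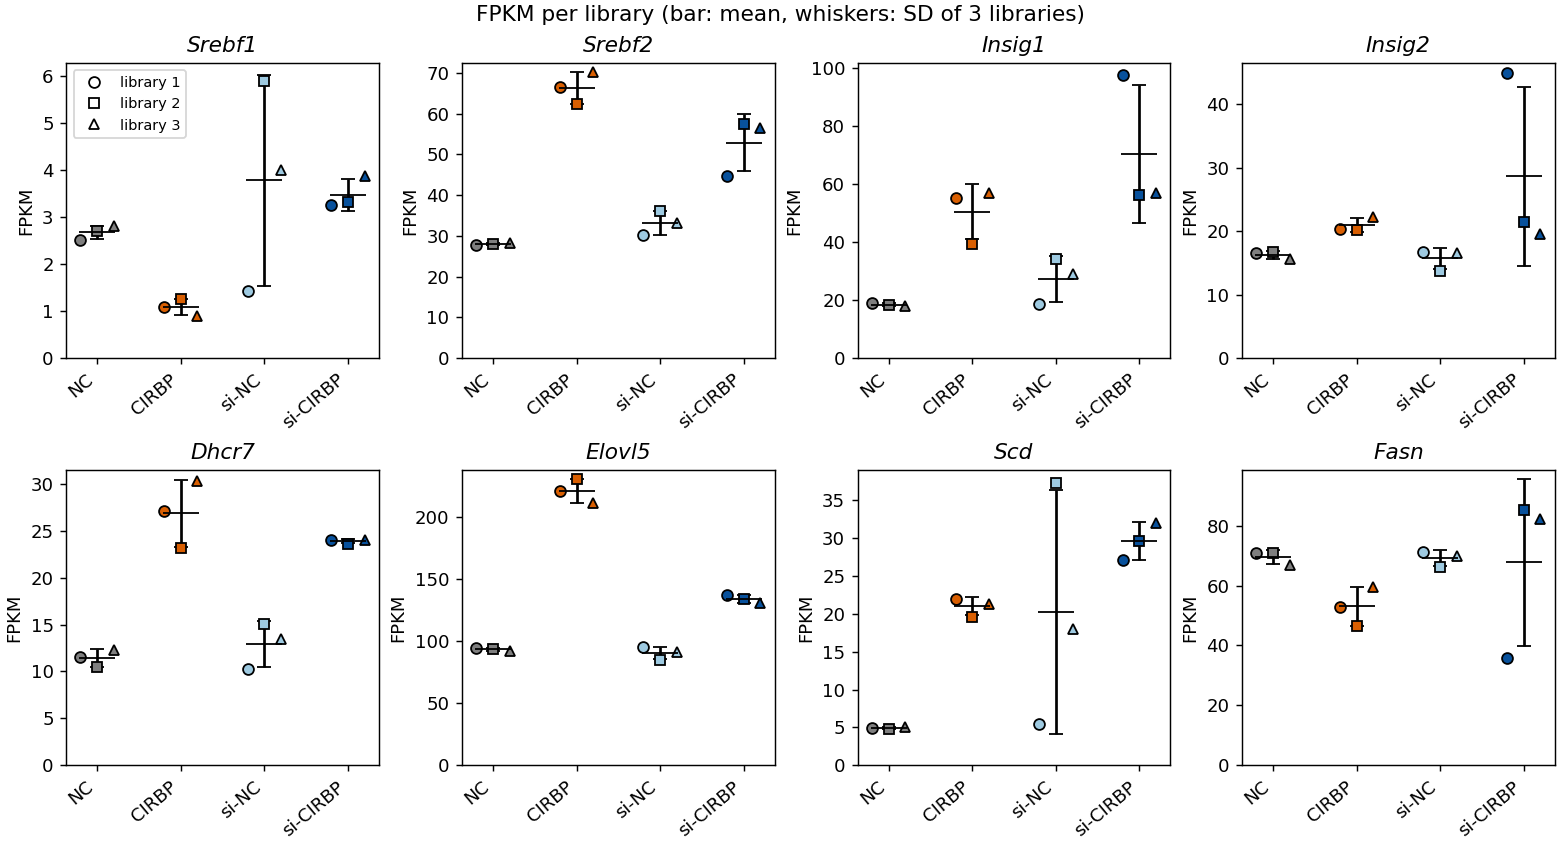
FPKM of 8 genes in each library by group, with the mean and the SD of 3 libraries. For Srebf2, Dhcr7 and Elovl5 the treated libraries lie above their controls. Library 1 of si-CIRBP (circle) stands at 97.6 FPKM for Insig1, 44.9 FPKM for Insig2 and 35.7 FPKM for Fasn, apart from its group.

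The mevalonate and squalene enzymes turn acetyl-CoA into isoprenoid units and join these into squalene. In CIRBP 6 of the 9 were called higher and 0 lower, with a median log2 change of 0.63. In si-CIRBP 8 of the 9 were called higher and 0 lower, with a median of 0.57. Of all genes tested, 19.7% were called higher and 34.2% lower in CIRBP, and 9.08% and 20.5% in si-CIRBP. Pmvk, which phosphorylates phosphomevalonate, was at 24.5, 26.3 and 26.2 FPKM in NC, and 40.3, 37.6 and 43.1 FPKM in the CIRBP libraries. In si-NC it was at 22.7, 20.1 and 23.2 FPKM and in si-CIRBP at 35.4, 27.8 and 28.1 FPKM. Neither pair of groups overlapped, and the log2 change was 0.63 ± 0.09 (adjusted p = 0.000231) in CIRBP and 0.44 ± 0.09 (adjusted p = 0.00562) in si-CIRBP.

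Of the other enzymes of these steps, Mvk, Idi1, Fdps, Fdft1 and Acat2 were also called higher in both comparisons. With only the groups compared, calls in si-CIRBP were lost for Pmvk (adjusted p = 0.0684), Mvk (0.0525), Idi1 (0.0639), Fdps (0.1305) and Fdft1 (0.0645). That of Acat2 was lost with a variance factor per group (adjusted p = 0.0736). Mvk, the mevalonate kinase, went from 10.7 ± 0.54 FPKM in NC to 18.1 ± 2.34 FPKM in CIRBP (mean ± SD, n = 3) and from 12.1 ± 1.28 FPKM in si-NC to 18.5 ± 2.64 FPKM in si-CIRBP. Its log2 change was 0.71 in CIRBP and 0.57 in si-CIRBP. Idi1, which isomerises isopentenyl diphosphate, rose by 0.63 and 0.70, and Fdps, which makes farnesyl diphosphate, rose by 0.68 and 0.56 on the log2 scale. Fdft1, the squalene synthase that commits the pathway to sterols, rose by 0.49 and 0.65. Acat2, which joins acetyl-CoA into acetoacetyl-CoA, rose by 0.79 and 0.78. Its values are uncertain because the table also lists the near copy Acat2l1, and the way shared reads were counted is not given.

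The remaining enzymes of these steps were called in si-CIRBP or in neither comparison. Hmgcs1, which condenses acetoacetyl-CoA to HMG-CoA, averaged 18.1 ± 0.69 FPKM in NC, against 25.6 ± 6.04 FPKM in CIRBP (log2 change 0.46, adjusted p = 0.175). In si-NC it spread from 18.9 to 44.9 FPKM, against 46.5 to 63.2 FPKM in si-CIRBP (log2 change 0.87, adjusted p = 0.0313). Sqle, the squalene epoxidase, had a log2 change of 0.34 in CIRBP (adjusted p = 0.0547) and rose by 0.44 in si-CIRBP (adjusted p = 0.0300). Mvd, which decarboxylates mevalonate diphosphate, had log2 changes of 0.14 and 0.20 and was not called. Several of these calls rest on few libraries. Fdft1 in CIRBP was not called without CIRBP library 3 (log2 change 0.37, adjusted p = 0.0748). In si-CIRBP the calls of Hmgcs1, Fdps and Sqle were each lost without si-NC library 1 and without si-CIRBP library 2 or 3, and those of Hmgcs1 and Sqle also without si-NC library 3.

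The 9 enzymes from lanosterol to cholesterol close the sterol rings and trim them to the final product. In CIRBP 3 were called higher and 0 lower (median log2 change 0.40), and in si-CIRBP 4 were higher and 0 lower (median 0.53). Over all genes, 19.7% were higher and 34.2% lower in CIRBP, and 9.08% and 20.5% in si-CIRBP. Dhcr7, the reductase of the last step to cholesterol, was at 11.5, 10.4 and 12.3 FPKM in NC, and 27.1, 23.2 and 30.3 FPKM in the CIRBP libraries. The si-NC libraries stood at 10.3, 15.1 and 13.4 FPKM and the si-CIRBP libraries at 24.0, 23.6 and 24.0 FPKM. All treated libraries lay above all control libraries of both comparisons. It had a log2 change of 1.16 ± 0.13 (adjusted p = 2.49e-05) in CIRBP and 0.85 ± 0.13 (adjusted p = 0.000789) in si-CIRBP.

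Msmo1, the sterol methyl oxidase, was at 61.5, 60.8 and 64.2 FPKM in NC, and 106, 83.0 and 117 FPKM in the CIRBP libraries. Libraries of si-NC held 71.7, 80.5 and 81.7 FPKM and those of si-CIRBP 117, 137 and 139 FPKM. Here too the treated libraries lay above the control libraries of both comparisons, with log2 changes of 0.69 ± 0.11 (adjusted p = 0.000461) and 0.74 ± 0.11 (adjusted p = 0.000976). Ebp, the sterol isomerase, was called higher in CIRBP (0.68, adjusted p = 0.00111), and its change in si-CIRBP was 0.32 (adjusted p = 0.0844). Hsd17b7, the sterol ketone reductase, and Sc5d, the sterol desaturase, were called higher in si-CIRBP (0.55 and 0.35), with changes of -0.11 and 0.14 in CIRBP that were not called. Per library Hsd17b7 was at 3.67, 3.39 and 3.58 FPKM in NC, 3.16, 2.67 and 3.90 FPKM in CIRBP, 3.35, 5.18 and 4.23 FPKM in si-NC and 5.39, 7.40 and 7.15 FPKM in si-CIRBP. The NC values lay within the CIRBP range, and the si-CIRBP values lay above those of si-NC. Its call in si-CIRBP was lost in 6 of 23 other settings, among them without library 1 or 3 of si-NC and without library 2 or 3 of si-CIRBP. The difference between the changes of Hsd17b7 was -0.66 ± 0.21 and was not called (adjusted p = 0.0591), but it was called without CIRBP library 3, si-NC library 2 or si-CIRBP library 1.

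The other 4 enzymes of these steps were called in neither comparison, with positive changes in both. Cyp51, the lanosterol demethylase and the most abundant of them per length at 101 ± 2.54 FPKM in NC, had log2 changes of 0.40 (adjusted p = 0.0510) and 0.44 (adjusted p = 0.0565). The values were 0.08 and 0.37 for Lss, which closes the sterol rings, 0.47 and 0.54 for Tm7sf2, a sterol reductase, and 0.27 and 0.53 for Nsdhl, a sterol dehydrogenase.

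Stard4, a soluble carrier that moves cholesterol between membranes, rose in both comparisons. It was at 4.59, 4.47 and 4.58 FPKM in NC, and 8.89, 6.88 and 9.62 FPKM in the CIRBP libraries. Levels in si-NC were 5.38, 4.90 and 5.18 FPKM, and in si-CIRBP 10.2, 9.63 and 9.10 FPKM. No control library reached any treated library. The log2 change was 0.76 ± 0.10 (adjusted p = 9.59e-05) in CIRBP and 0.79 ± 0.10 (adjusted p = 0.000319) in si-CIRBP.

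The 4 enzymes that make acetyl-CoA and build palmitate from it gave 0 calls among 4 in CIRBP, with a median log2 change of 0.03. In si-CIRBP 1 was called higher and 1 lower. Of all genes tested, 54% were called in CIRBP and 29.6% in si-CIRBP. Acly, which releases acetyl-CoA from citrate, was at 48.9, 49.8 and 48.8 FPKM in NC, and 55.3, 50.2 and 59.1 FPKM in the CIRBP libraries (log2 change 0.15 ± 0.08, adjusted p = 0.125). In si-NC it was at 63.0, 63.9 and 63.2 FPKM and in si-CIRBP at 99.6, 82.4 and 81.9 FPKM (log2 change 0.46 ± 0.08, adjusted p = 0.00167). The si-CIRBP libraries were above the other 9, with library 1 the highest. The difference between the 2 changes was -0.31 ± 0.11 and was not called (adjusted p = 0.0804). Acss2, which makes acetyl-CoA from acetate, was called lower in si-CIRBP (-0.22, adjusted p = 0.0458), at 20.4 ± 2.25 FPKM against 24.0 ± 1.65 FPKM in si-NC. That call was lost in 17 of 23 other settings.

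Fasn, the fatty acid synthase, was called in neither comparison. It was at 70.8, 70.9 and 67.0 FPKM in NC, and 52.9, 46.5 and 59.7 FPKM in the CIRBP libraries (log2 change -0.39 ± 0.26, adjusted p = 0.232). Libraries of si-NC held 71.3, 66.1 and 69.9 FPKM and those of si-CIRBP 35.7, 85.2 and 82.4 FPKM (log2 change -0.13 ± 0.26, adjusted p = 0.752). Library 1 of si-CIRBP was below every other library of the study, and the other libraries of its group were above every one. Without that library the change of Fasn in si-CIRBP was 0.28 and called higher (adjusted p = 0.0314). In CIRBP all libraries lay below those of NC, and the lower level was called without si-CIRBP library 1 (adjusted p = 0.00135) and with only the groups compared, in 5 of 23 other settings in all. Acaca, which makes malonyl-CoA, had log2 changes of 0.23 (adjusted p = 0.126) and 0.34 (adjusted p = 0.0503).

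The desaturases and the elongase had the largest median change of the 6 roles in CIRBP, where 4 of the 4 tested were called higher with a median log2 change of 1.24. In si-CIRBP 3 of the 4 were called higher with a median of 0.58. Of all genes tested, 19.7% were called higher in CIRBP and 9.08% in si-CIRBP. Elovl5, which elongates polyunsaturated fatty acids, was at 94.6, 93.6 and 92.0 FPKM in NC, and 221, 231 and 212 FPKM in the CIRBP libraries. Levels in si-NC were 95.2, 85.2 and 90.9 FPKM, and in si-CIRBP 137, 134 and 131 FPKM. The groups were tight, and both control groups lay near the same level. It had a log2 change of 1.23 ± 0.05 (adjusted p = 6.12e-08) in CIRBP and 0.56 ± 0.05 (adjusted p = 4.19e-05) in si-CIRBP, the smallest adjusted p of the 32 genes in each.

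Fads1, a desaturase of polyunsaturated fatty acids, was at 78.0, 79.3 and 77.2 FPKM in NC, and 191, 188 and 183 FPKM in the CIRBP libraries. The si-NC libraries stood at 67.5, 91.4 and 80.3 FPKM and the si-CIRBP libraries at 89.2, 119.95 and 114 FPKM. The CIRBP libraries were far above all others, while si-CIRBP library 1 lay within the si-NC range. The log2 change was 1.25 ± 0.12 (adjusted p = 8.38e-06) in CIRBP and 0.43 ± 0.12 (adjusted p = 0.0190) in si-CIRBP. The call in si-CIRBP was lost in 4 of 23 other settings, among them without si-NC library 1 (0.32, adjusted p = 0.0560) and without library 2 or 3 of si-CIRBP. Its partner desaturase Fads2 went from 109 ± 1.97 to 199 ± 5.43 FPKM in CIRBP (log2 change 0.86, adjusted p = 0.000718). In si-CIRBP it went from 103 ± 24.1 to 156 ± 26.5 FPKM (0.60, adjusted p = 0.0144), and the libraries of the si groups overlapped. That call of Fads2 was lost with only the groups compared (adjusted p = 0.116).

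Scd, which makes oleate from stearate, had the largest log2 change in CIRBP of the 32 genes, 1.90 ± 0.47 (adjusted p = 0.00541). It was at 4.89, 4.73 and 5.10 FPKM in NC, and 22.0, 19.6 and 21.3 FPKM in the CIRBP libraries. In si-NC it spread over 5.44, 37.3 and 18.0 FPKM, and in si-CIRBP it was at 27.1, 29.7 and 32.1 FPKM, a change of 0.87 that was not called (adjusted p = 0.193). The si-NC libraries lay on both sides of the si-CIRBP ones, and si-NC library 1 was at the level of NC. Without that library the change in si-CIRBP was 0.18 (adjusted p = 0.595), and without si-NC library 2 it was 1.47 and called (adjusted p = 0.00973). The table also lists the related genes Scd2 and Scd4, so the value of Scd by itself is uncertain.

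Calls changed when library 1 of si-NC or of si-CIRBP was left out. Without si-NC library 1, the number of the 32 genes called in si-CIRBP fell from 21 to 15 (background 28.2%). The 6 calls lost were those of Insig2 (0.78, adjusted p = 0.0609), Hmgcs1 (0.53, adjusted p = 0.0684), Fdps (0.36, adjusted p = 0.0639), Sqle (0.39, adjusted p = 0.0817), Hsd17b7 (0.42, adjusted p = 0.0639) and Fads1. In CIRBP, where the values stay and the shared spread changes, Hmgcs1, Cyp51 and Tm7sf2 became called as higher. The differences between the 2 changes became called for Ebp, Dhcr7 and Scd, at 0.51, 0.45 and 1.72.

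Without si-CIRBP library 1, 25 of the 32 genes were called in si-CIRBP (background 35.7%), with Cyp51, Nsdhl, Acaca and Fasn added as higher and 0 calls lost. In CIRBP 23 were called (background 61.9%), with Insig2 (adjusted p = 0.00279), Sqle, Cyp51, Acly and Acaca added as higher and Fasn as lower. The difference became called for Fasn (-0.67, adjusted p = 0.00235), Acaca, Hsd17b7 and Pmvk. Other single libraries also decided calls in si-CIRBP. The call of Sc5d was lost without library 3 of si-NC or of si-CIRBP. Without si-NC library 2, calls were gained for Ebp, Nsdhl and Tm7sf2 as higher and for Scap as lower. In CIRBP, Sqle and Cyp51 were also called without CIRBP library 2 or si-CIRBP library 2, Cyp51 without si-CIRBP library 3 and Tm7sf2 without si-NC library 2.

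The size of the change was compared between the 2 comparisons as the change in CIRBP minus the change in si-CIRBP. Each treatment has its own control group, and 34.4% of all genes were called between si-NC and NC. A difference due to the treatments thus cannot be told apart from one between the pairs of groups. Of the 32 genes 3 were called (9.38%), against 17.8% of all genes tested, and all 3 were larger in CIRBP, against 6.87% of all genes called in that direction and 10.9% in the other. The difference was 0.67 ± 0.07 for Elovl5 (adjusted p = 0.000382), 0.82 ± 0.17 for Fads1 (adjusted p = 0.00779) and 0.56 ± 0.13 for Srebf2 (adjusted p = 0.0166). These 3 calls were kept in each of the 22 other settings run. For the mevalonate and squalene enzymes the median difference was -0.06 with 0 of 9 called, and for those from lanosterol to cholesterol -0.07 with 0 of 9 called. A p-value that misses the threshold does not show that the 2 changes were alike for these genes. With libraries 2 and 3 alone in the si groups, 11 of the 32 were called, 8 larger and 3 smaller in CIRBP, against 41.4% of all genes.

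**Figure D3:**
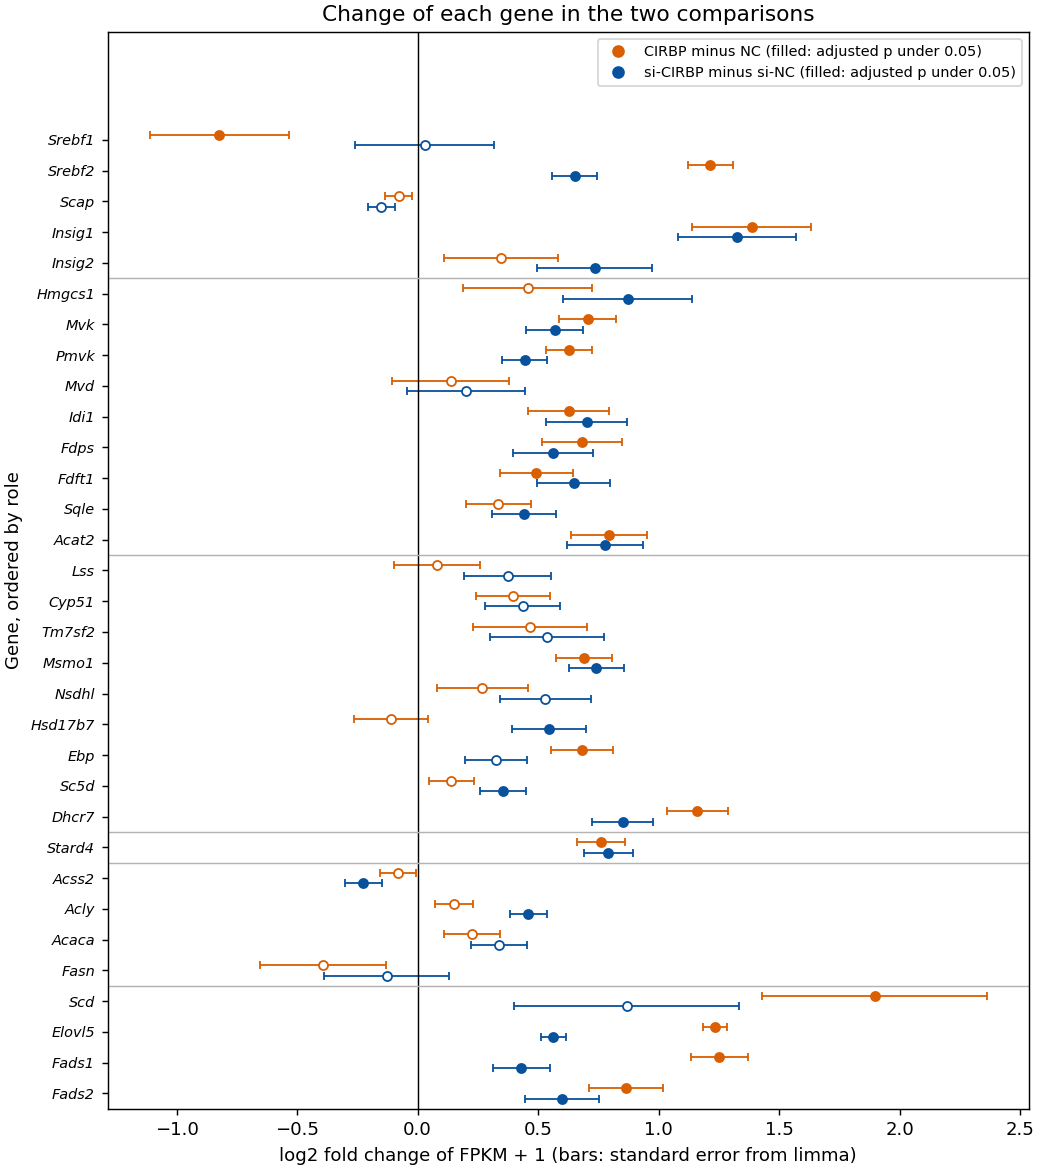
Log2 change of FPKM + 1 for the 32 tested genes in CIRBP against NC (orange) and si-CIRBP against si-NC (blue), with standard errors from limma and filled points where the adjusted p was under 0.05. Most filled points lie right of 0, Srebf1 in CIRBP lies at -0.82, and the points of Srebf2, Elovl5 and Fads1 are apart by 0.56, 0.67 and 0.82.

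The control groups also differed from each other. This comparison shares its libraries with the other 2, so it is given beside them and not as separate evidence. In si-NC against NC 9 of the 32 genes were called (28.1%), against 34.4% of all genes. Of these, 8 were higher, against 12.5% of all genes, and 1 was lower, against 21.9%. The 8 were Mvd (log2 change 0.82), Ebp (0.80), Scd (1.5), Acat2 (0.50), Fdps (0.50), Idi1 (0.49), Sqle (0.45) and Acly (0.36). Acss2 was lower by -0.49, at 24.0 ± 1.65 FPKM in si-NC against 34.1 ± 0.85 FPKM in NC. Without si-NC library 1 the number called was 18, and without NC library 1, NC library 2 or si-NC library 3 it was 3. Of the 9 calls, those of Ebp, Acly and Acss2 held in each of 23 other settings, and each of the others was lost in 5 to 12. Between the same groups 4 of 6 tested smooth muscle markers and 4 of 8 tested skeletal and cardiac muscle markers were called higher. Of 5 tested fibroblast markers 3 were higher and 1 lower, with Col1a1 at 1.19 to 2.36 FPKM in NC and 42.4 to 661 FPKM in si-NC. Of 4 tested astrocyte markers 1 was higher and 2 were lower. The part of those markers in the values of the sterol genes was not tested.

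Libraries of one group also differed from each other in the levels of the sterol enzymes. Among the 18 enzymes from Hmgcs1 and Acat2 to Dhcr7, CIRBP library 2 was the lowest of its group in 18 of 18 and CIRBP library 3 the highest in 17 of 18. In si-NC, library 1 was the lowest in 17 of 18, and in si-CIRBP, library 1 was the lowest in 13 of 18. In NC no library held more than 11 of the lowest values. Genes of one library share its RNA, so each of these counts describes 1 library. The same counts were not made over all genes, so they do not show a trait of these enzymes. The median log2 ratio of the 32 genes to the NC mean was 0.286 to 0.729 over the CIRBP libraries, 0.0235 to 0.369 over the si-NC libraries and 0.704 to 0.875 over the si-CIRBP libraries. The summed FPKM of the 33 genes was 995 to 999.9 in NC, 1490 to 1704 in CIRBP, 996 to 1278 in si-NC and 1487 to 1743 in si-CIRBP.

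**Figure D4:**
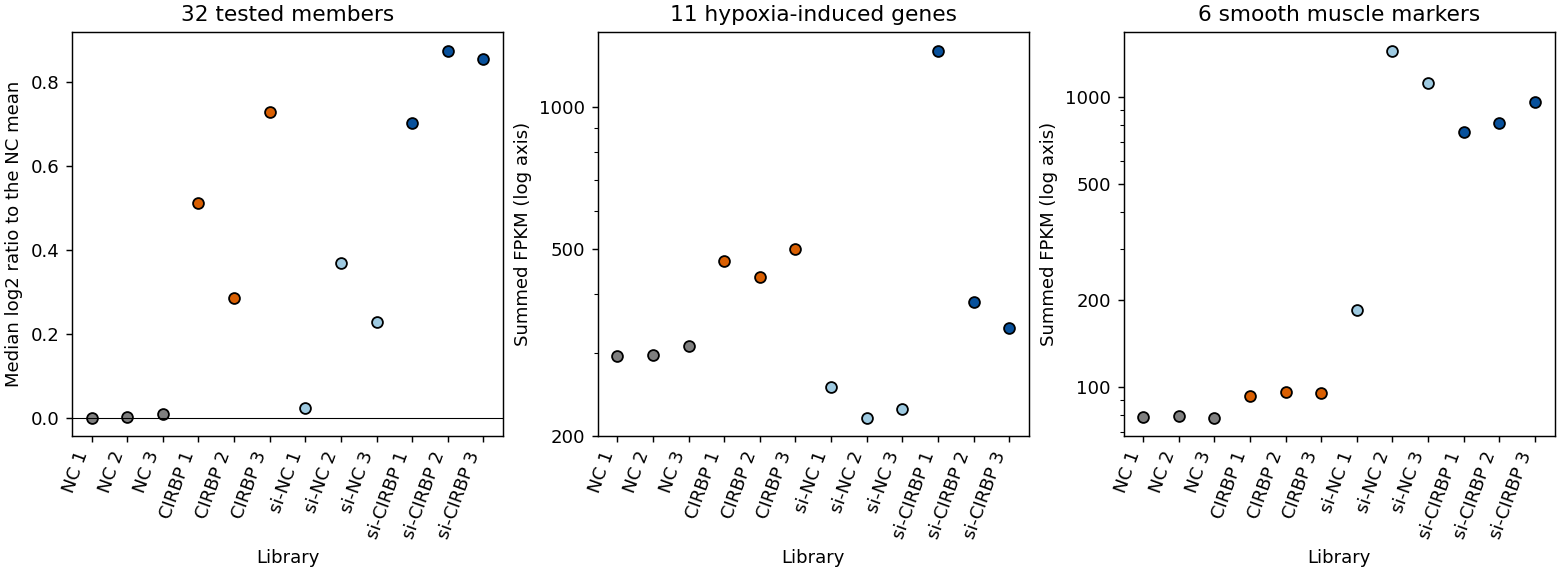
Per library, the median log2 ratio of the 32 tested genes to the NC mean (left), and the summed FPKM of 11 hypoxia-induced genes (middle) and 6 smooth muscle markers (right), both on log axes. Library 1 of si-NC is at 0.0235 on the left and 184 FPKM on the right, below the other si-NC libraries, and library 1 of si-CIRBP is at 1316 FPKM in the middle.

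Hypoxia-induced genes, which respond to low oxygen, were followed beside the sterol genes. Of 11 tested, 3 were called higher and 1 lower in CIRBP and 6 higher and 0 lower in si-CIRBP. Over all genes, 19.7% were higher and 34.2% lower in CIRBP, and 9.08% and 20.5% in si-CIRBP. Their sums were 295 to 311 FPKM in NC, 436 to 499 FPKM in CIRBP, 218 to 254 FPKM in si-NC and 338 to 1316 FPKM in si-CIRBP. In si-CIRBP the library with the highest sum had the lowest median of the 32 genes. Smooth muscle markers were called in neither direction in si-CIRBP, and 1 was higher and 1 lower in CIRBP. Their part in the results for the sterol genes was not tested.

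Around the synthesis genes lie those of sterol sensing, uptake, efflux, prenylation and lipid storage. Of 61 such genes listed, 58 were in the table and 56 were tested. In CIRBP 20 were called higher and 15 lower (62.5% called, median log2 change 0.03), and in si-CIRBP 8 higher and 4 lower (21.4% called, median 0.04). Over all genes the shares called were 54% and 29.6%.

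Scarb1, a receptor that takes up cholesterol from lipoproteins, went from 21.0 ± 0.08 to 43.2 ± 1.30 FPKM in CIRBP (log2 change 1.01, adjusted p = 8.87e-08) and from 23.4 ± 0.97 to 35.4 ± 0.56 FPKM in si-CIRBP (0.58, adjusted p = 1.59e-05). Acsl3, which activates fatty acids for lipid synthesis, rose by 0.97 and 0.75. Npc1, which exports cholesterol from lysosomes, fell from 24.1 ± 0.20 to 12.0 ± 0.36 FPKM in CIRBP (-0.95, adjusted p = 6.19e-06) and from 21.1 ± 0.49 to 17.3 ± 2.71 FPKM in si-CIRBP (-0.28, adjusted p = 0.0309). The uptake receptor and the lysosomal exporter thus changed in opposite directions.

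In the isoprenoid branch, which uses farnesyl diphosphate for purposes other than sterols, members also parted. The subunit genes of farnesyltransferase changed in opposite directions, with Fnta at -0.62 and -0.24 and Fntb at 0.58 and 0.56 in the 2 comparisons. Pdss1, which builds the side chain of coenzyme Q, changed by -0.85 and -0.29, both called. Mbtps1, the Golgi protease that makes the first cut in the sterol regulatory element-binding proteins, rose from 20.5 ± 0.56 to 36.1 ± 0.47 FPKM in CIRBP (0.79, adjusted p = 1.73e-05). In si-CIRBP its change was 0.23 (adjusted p = 0.0619). Of the 10 genes of sterol sensing tested, 3 were called higher and 4 lower in CIRBP, with a median log2 change of -0.01. In si-CIRBP 0 were called. Over all genes, 19.7% were higher and 34.2% lower in CIRBP, and 29.6% were called in si-CIRBP. Slc25a1, the mitochondrial citrate exporter that feeds Acly, rose by 0.66 and 0.47, and Lpcat3, which places polyunsaturated fatty acids in phospholipids, rose by 0.51 and 0.41.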

How the data were processed

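Expression values were used as FPKM per gene and library, as the authors deposited them, per the file headers. Per the submitters' processing notes Cufflinks 2.2.1 and Bowtie2 2.3.3.1 are listed with no role, and the builds mentioned are those of mouse (mm10, GRCm38), while the gene identifiers are rat Ensembl ones, so the build behind the values is unclear. The table's names for the NC and CIRBP columns carry a prefix, ad, that the labels do not explain. Libraries were placed in groups by their titles. The 14257 of 18344 genes that reached 1 FPKM in 3 of the 12 libraries were fitted in R 4.3.3 with limma 3.58.1, with a trend, on log2(FPKM + 1), with 1 coefficient per group, 8 residual degrees of freedom and no block. A fold change on this scale understates the change of low genes. Two-sided p-values were adjusted over all genes tested by the Benjamini-Hochberg method. The fit was tested on simulated data. No value above 0 was the same in any pair of libraries. The member genes and lists were chosen with earlier results of these data known. Genes named with every value were the control proteins and the 6 called genes with the smallest adjusted p of each comparison, with the 5 genes of smallest adjusted p for the difference whether called or not, and with Scd and Fasn added after their values were seen. Related genes were named likewise, up to 6 for each comparison. Promoter sequences are RefSeq's for GRCr8 and were not matched to the build of the expression values. Alternatives covered the pseudocount, filters, scaling, the variance model, the replicate block and the removal of each library.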

Additional observations from a re-analysis of the deposited data

Results flagged for a closer look

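For 3 genes the change in CIRBP against NC and the change in si-CIRBP against si-NC differed by a test of the difference itself. The difference in log2 change was 0.5626 for Srebf2 (adjusted p = 0.01663), 0.6704 for Elovl5 (adjusted p = 0.0003816) and 0.8212 for Fads1 (adjusted p = 0.007791), all larger in CIRBP. The control groups differ too, so treatment and pair of groups cannot be told apart here. Groups of 3 libraries are too small for a test of single libraries that stand apart.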

How the results depend on the processing

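The numbers of the 32 genes called were 17 for CIRBP, 21 for si-CIRBP (each against its control), 3 for their difference and 9 between the control groups. Fitting only the groups compared gave 25 in CIRBP and 8 in si-CIRBP, with 1155 genes called in all for si-CIRBP. A variance factor per group gave 28 in CIRBP and 9 in si-CIRBP, with 2019 genes called in all for si-CIRBP. Leaving out 1 library at a time gave 15 to 23, 14 to 25, 3 to 7 and 3 to 18 called in the 4 comparisons, and over all genes 6687 to 8825, 3253 to 5095, 1596 to 4503 and 3085 to 6721. The number for the difference rose to 6 without si-NC library 1 or 2 and to 7 without si-CIRBP library 1. With libraries 2 and 3 alone in the si groups, a choice made after seeing the data, 25 were called in CIRBP, 11 for the difference and 21 between the controls, and 5899 and 8188 genes in all for the last pair. Scaled to one median as well, these were 27, 11 and 24, with 5807 and 7834 genes. Fasn in si-CIRBP turned from a log2 change of -0.1274 to 0.298 and 0.3922 in those settings, and ranged from -0.3407 to 0.2753 as libraries were left out. The main fit did not pair libraries by number, and deviations from the group means were correlated between groups. For NC with CIRBP the correlations of same-numbered libraries were 0.0965, 0.0482 and 0.0995. Those of different number gave -0.083 to -0.00817. For the si groups same numbers gave 0.0142, -0.0898 and 0.0405, and different numbers -0.0967 to 0.0921. With 3 libraries per group, these values cannot decide whether the numbers pair the samples. With a replicate block 18, 20, 3 and 10 of the 32 were called and 7512, 3926, 2232 and 4525 genes in all. Each of the 128 single-gene results was recomputed in every planned setting that allowed it. Of the recomputed values 2436 stayed called or not called as before, 99 gained a call, 120 lost it and 1 turned with a call. A change of sign without a call in either fit was counted among the 2436, so not all of these kept their direction. Depth is unknown in FPKM, so counting error could not be given.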
